A study of Mus musculus with 30 samples.

Results

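The 4 Hox gene clusters hold the homeobox transcription factors that give cells their position along the body axis, and 38 of these genes, 10 each in HoxA and HoxB and 9 each in HoxC and HoxD, are described here through the chromatin peaks called over them. The members were taken from the peak lists by position alone: every peak that overlapped by at least 1 bp the mm9 windows of HoxA (chr6:52100000-52220000, 120.001 kb), HoxB (chr11:96040000-96235000, 195.001 kb), HoxC (chr15:102740000-102880000, 140.001 kb) or HoxD (chr2:74495000-74610000, 115.001 kb). These windows held 1150 of the 240359 peaks in 20 lists: 273 in HoxA, 319 in HoxB, 311 in HoxC and 247 in HoxD. HoxA was represented by Hoxa2, Hoxa3, Hoxa4, Hoxa5, Hoxa6, Hoxa7, Hoxa9, Hoxa10, Hoxa11 and Hoxa13. HoxB was represented by Hoxb1 to Hoxb9 and Hoxb13, HoxC by Hoxc4, Hoxc5, Hoxc6 and Hoxc8 to Hoxc13, and HoxD by Hoxd1, Hoxd3, Hoxd4 and Hoxd8 to Hoxd13. Peaks are placed by cluster and coordinate, and none is assigned to a single gene, because an annotation of mm9 was not used.

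All lists came from chromatin immunoprecipitation and sequencing (ChIP-seq) in E14Tg2A mouse embryonic stem cells, an established line, kept without feeder cells on gelatin in serum with LIF. Without knock-down there were 2 lists each for C17orf96 (EPOP), EloB, Suz12 and H3K4me3, and 1 each for Jarid2 and H3K27me3. Upon depletion of EPOP by lentiviral short hairpin RNA with puromycin selection there were 2 lists each for EPOP and EloB and 1 each for Suz12, Jarid2, H3K27me3 and H3K4me3. Upon depletion of EloB by transfected small interfering RNA there was 1 list each for Suz12 and H3K4me3. The EloB ChIPs had an extra crosslink between proteins. The EPOP replicates used different lots of a home-made antibody and the EloB replicates antibodies of different makers, with the same one in the equally numbered replicate of both conditions. The labels of 2 libraries conflict. The library titled EPOP knock-down replicate 1 is described elsewhere in its labels as IgG, and the IgG library as C17orf96, while the antibody label of each matches its title. Whether the libraries or only their descriptions were exchanged cannot be told apart here, so results that rest on EPOP knock-down replicate 1 are also given without it. Per the file headers, the list named Suz12 replicate 1 and that named H3K4me3 replicate 2 carry the control of the small interfering RNA, and Suz12 replicate 2 and H3K4me3 replicate 1 that of the hairpin. The labels do not call replicates independent cultures, so p-values and SDs measure only the spread between these samples, which may be technical. Read depth is unknown. The series' IgG library and its 9 RNA samples were not analysed here.

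Hox clusters are a standard example of Polycomb repression: in embryonic stem cells Polycomb repressive complex 2 (PRC2) occupies them and deposits H3K27me3 over long, continuous domains, while their start sites also carry H3K4me3, a combination called bivalent. Suz12 is a core subunit of PRC2, Jarid2 and EPOP are accessory subunits, and EloB (Elongin B) is a partner of Elongin C and a subunit of the elongin complex, which EPOP binds. CpG islands, stretches rich in the dinucleotide CG, are the usual sites at which PRC2 is found in these cells.

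Promoter sequences of the members are shown for their CG content. RefSeq promoter windows of build GRCm38.p6 were matched by symbol for 22 of the 38 genes, which gave 24 promoters, and only the 250 bases before the start site were read. In HoxB only Hoxb1, Hoxb4 and Hoxb8 were matched and in HoxC only Hoxc4. The counts below thus mainly describe HoxA and HoxD. CG, which is its own reverse complement, occurred a median of 12.5 times in these 24 promoters (2 to 35) and a median of 6 times over all 32841 promoters of the table. At least 10 CG were found in 15 of 24 Hox promoters (62.5%) and in 37.8% of all promoters. The 5 shown here run 5′ to 3′ on the gene's strand with CG in capitals: the promoters with most CG among the matched members of HoxA and HoxD, both from the 5′ end of their cluster, 1 member each of HoxB and HoxC, and the promoter with fewest. Hoxa13 (chr6:52260881-52261130, minus strand, 35 CG) and Hoxd13 (chr2:74667975-74668224, plus strand, 31 CG) encode factors of the distal limb and hindgut. Hoxb4 (chr11:96318017-96318266, plus strand, 14 CG) and Hoxc4 (chr15:103034145-103034394, plus strand, 8 CG) belong to the anterior part of their clusters, and Hoxd11 (chr2:74679308-74679557, plus strand, 2 CG) has a second listed start with 20 CG.
Hoxa13: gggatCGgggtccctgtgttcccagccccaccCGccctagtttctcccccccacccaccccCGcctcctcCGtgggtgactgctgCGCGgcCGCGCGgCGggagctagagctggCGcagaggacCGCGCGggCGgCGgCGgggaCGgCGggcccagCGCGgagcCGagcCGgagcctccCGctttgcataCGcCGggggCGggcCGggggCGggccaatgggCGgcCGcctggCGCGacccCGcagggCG
Hoxd13: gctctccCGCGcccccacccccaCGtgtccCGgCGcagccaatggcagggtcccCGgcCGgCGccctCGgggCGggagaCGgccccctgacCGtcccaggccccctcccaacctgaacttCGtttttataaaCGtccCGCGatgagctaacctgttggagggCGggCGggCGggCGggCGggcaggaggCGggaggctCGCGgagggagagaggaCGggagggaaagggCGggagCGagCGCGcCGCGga
Hoxb4: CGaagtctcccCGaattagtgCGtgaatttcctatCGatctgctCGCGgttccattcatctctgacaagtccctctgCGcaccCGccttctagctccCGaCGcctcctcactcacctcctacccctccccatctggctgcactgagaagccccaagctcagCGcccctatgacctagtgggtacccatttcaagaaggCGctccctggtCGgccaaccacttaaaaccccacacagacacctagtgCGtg
Hoxc4: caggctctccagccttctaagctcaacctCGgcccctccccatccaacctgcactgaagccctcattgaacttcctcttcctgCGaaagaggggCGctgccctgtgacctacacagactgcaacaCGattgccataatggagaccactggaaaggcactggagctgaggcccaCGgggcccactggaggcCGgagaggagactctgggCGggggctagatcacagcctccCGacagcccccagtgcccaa
Hoxd11: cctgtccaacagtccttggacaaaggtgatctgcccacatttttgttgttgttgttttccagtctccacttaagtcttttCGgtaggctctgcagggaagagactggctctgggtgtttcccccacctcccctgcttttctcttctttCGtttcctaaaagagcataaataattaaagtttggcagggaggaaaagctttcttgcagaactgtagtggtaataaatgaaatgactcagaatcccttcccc
Between the extremes lay Hoxa5 with 28 CG, Hoxa6 and Hoxd1 with 24 each, and Hoxa9 and Hoxd4 with 3 each. The letters describe these windows only, and no peak was assigned to them.

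Without knock-down, PRC2, EPOP and H3K27me3 peaks covered much of all 4 clusters. Suz12 replicate 1 covered 450.812 kb of the 570.004 kb (79.1%) and replicate 2 covered 326.983 kb (57.4%), and H3K27me3 covered 390.262 kb (68.5%). EPOP covered 339.147 and 363.551 kb (59.5% and 63.8%) and Jarid2 216.659 kb. EloB covered less, 70.301 and 78.819 kb (12.3% and 13.8%), in 41 and 52 separate peaks, and H3K4me3 covered 104.057 and 151.024 kb (18.3% and 26.5%). The windows made up 1.56% to 3.75% of the covered length of the lists without knock-down of EPOP, EloB, Suz12, Jarid2 and H3K27me3, and 0.165% and 0.187% of the H3K4me3 lists. HoxB was the least covered cluster of Suz12, EPOP, Jarid2 and H3K27me3, at 58.6% for H3K27me3 against 62.2% in HoxA, 79.0% in HoxC and 78.9% in HoxD. A stretch of 44.288 kb in HoxB (chr11:96067390-96111677) had no peak in any of the 10 lists without knock-down. The longest stretch of this kind was 2.279 kb in HoxA, 6.542 kb in HoxC and 6.75 kb in HoxD. In all, 27.8% of HoxB and 2.51% of HoxA lay in no list.

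**Figure D1:**
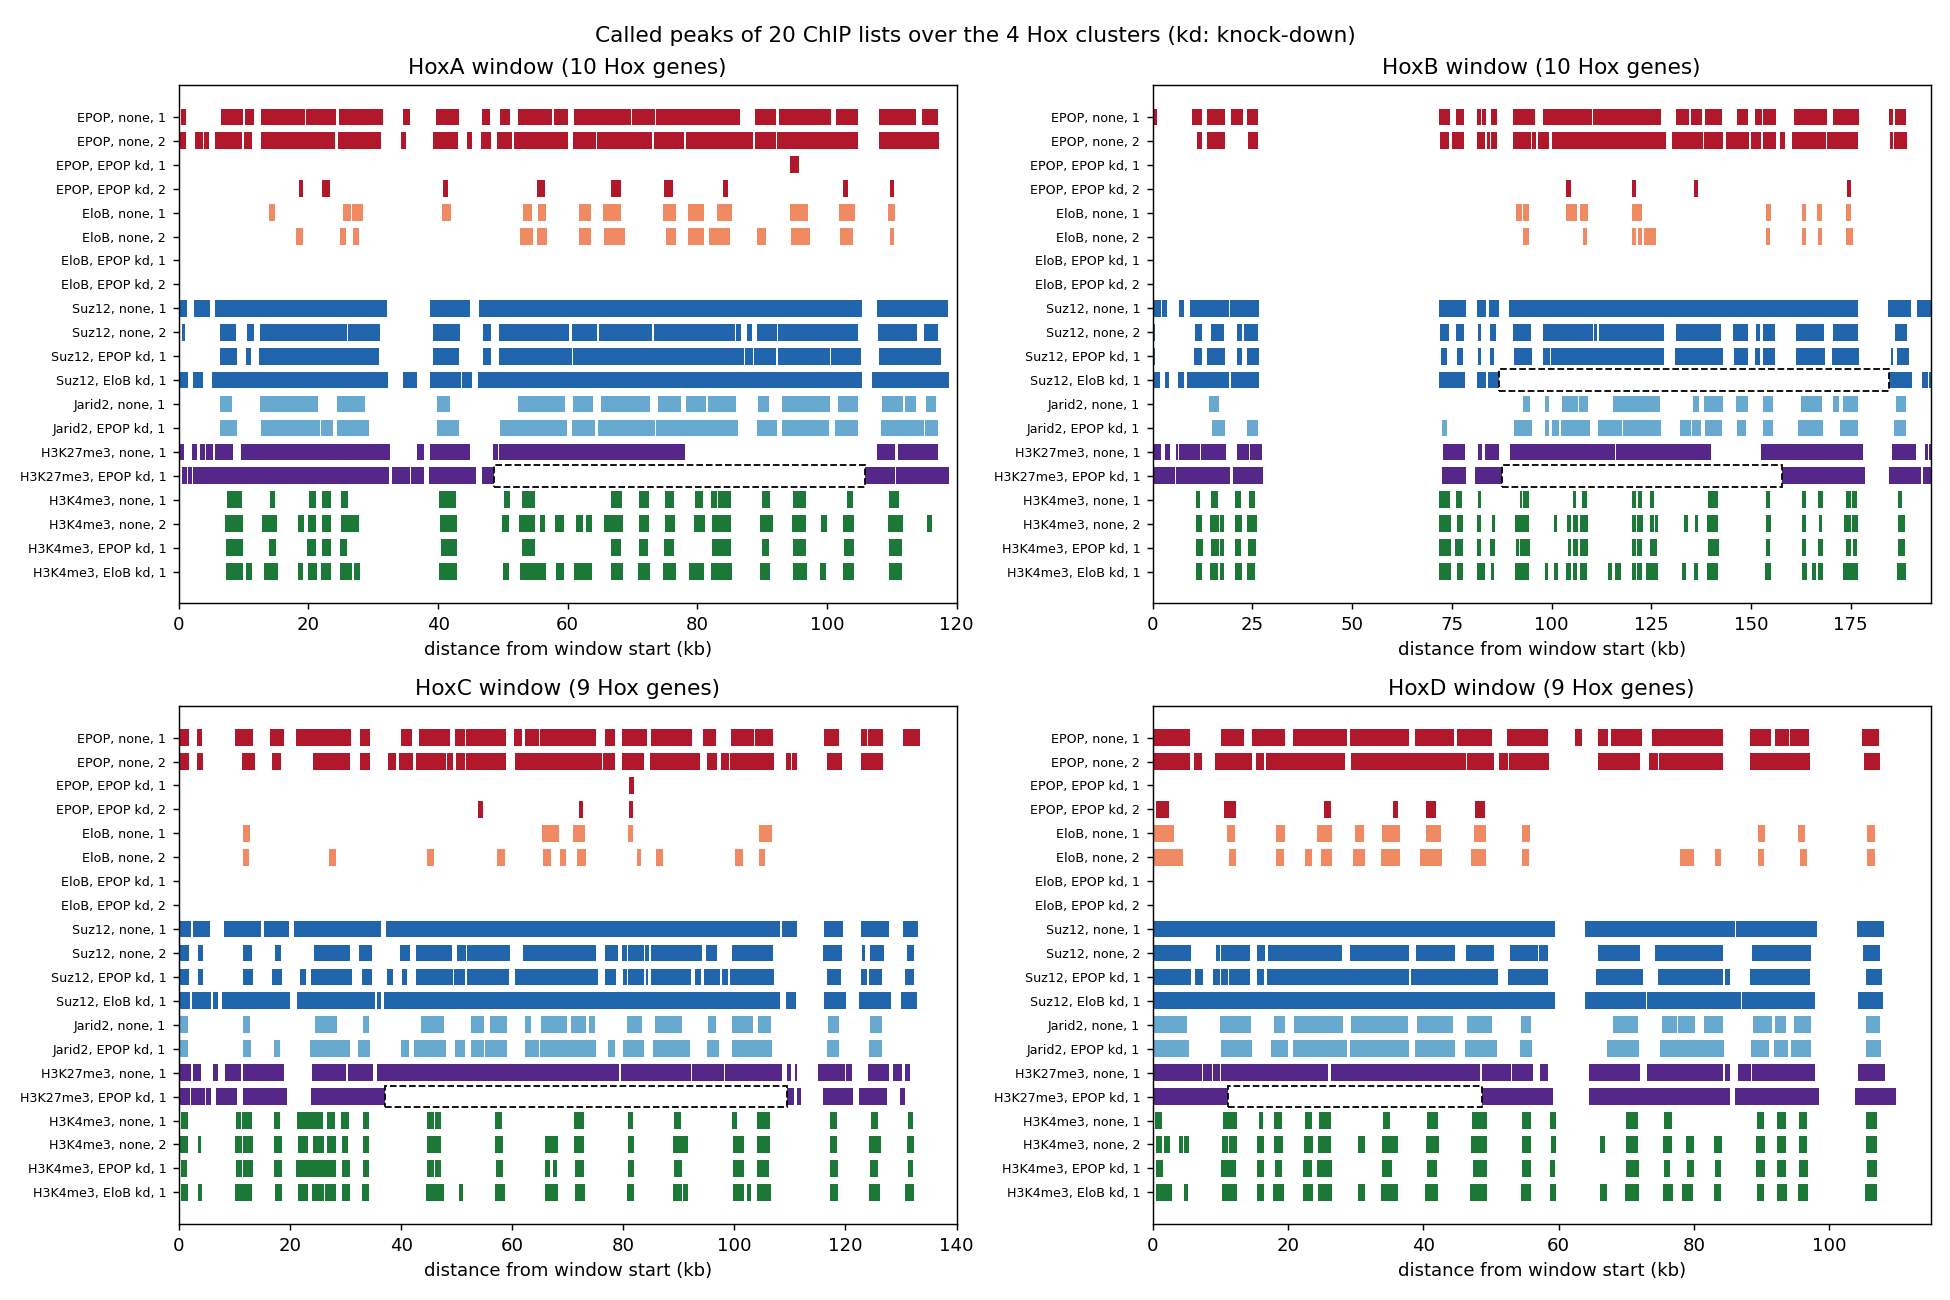
Peaks of the 20 lists over each Hox window, with distance from the window start in kb on the x axis and 1 row per list (none: no knock-down, kd: knock-down, last number: replicate). Bars are called peaks, coloured by target, and the dashed boxes mark stretches of 10 kb or more without a peak in a Suz12 or H3K27me3 knock-down list where another list of that target has a peak of 10 kb or wider. The 4 boxes of H3K27me3 upon EPOP knock-down, 1 in each cluster, span 57.114, 70.305, 72.414 and 37.525 kb.

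The 4 widest peaks of Suz12 replicate 1 in the whole genome lay in the 4 windows, 1 in each cluster: 87683 bp in HoxB, 62213 bp in HoxD, 59195 bp in HoxA and 47708 bp in HoxC. In Suz12 replicate 2 the windows held 2 of the 10 widest peaks and the widest of them had 13309 bp, so the same domains were cut there into 89 peaks rather than 35. The widest H3K27me3 peak of the genome was a HoxA peak of 21763 bp, and the widest peak of EPOP replicate 2 a HoxB peak of 28722 bp. For H3K4me3, none of the 10 widest peaks of any list lay in the windows, and the median width there (1244 and 1345 bp) was below the list medians (1413 and 1420 bp). The clusters thus carried long PRC2 and EPOP peaks with short H3K4me3 and EloB peaks set within them.

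The overlap differed between pairs of targets. Every base of the EloB regions shared by both lists (51.609 kb) lay in regions of EPOP, Suz12 and Jarid2, against 89.9%, 91.3% and 91.0% of EloB bases over the whole genome. EPOP bases lay in Suz12 regions for 94.0% (86.8% genome-wide) and in Jarid2 peaks for 67.5% (46.5% genome-wide). H3K4me3 differed most from the rest of its list: 82.4% of its bases in the clusters lay in H3K27me3 peaks, against 14.1% genome-wide. EPOP bases made up 93.5% of them, against 14.9% genome-wide. Conversely, 30.0% of EPOP bases in the clusters were also H3K4me3 bases, against 77.7% genome-wide. These shares describe lists made from the same cells and were not tested.

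**Figure D2:**
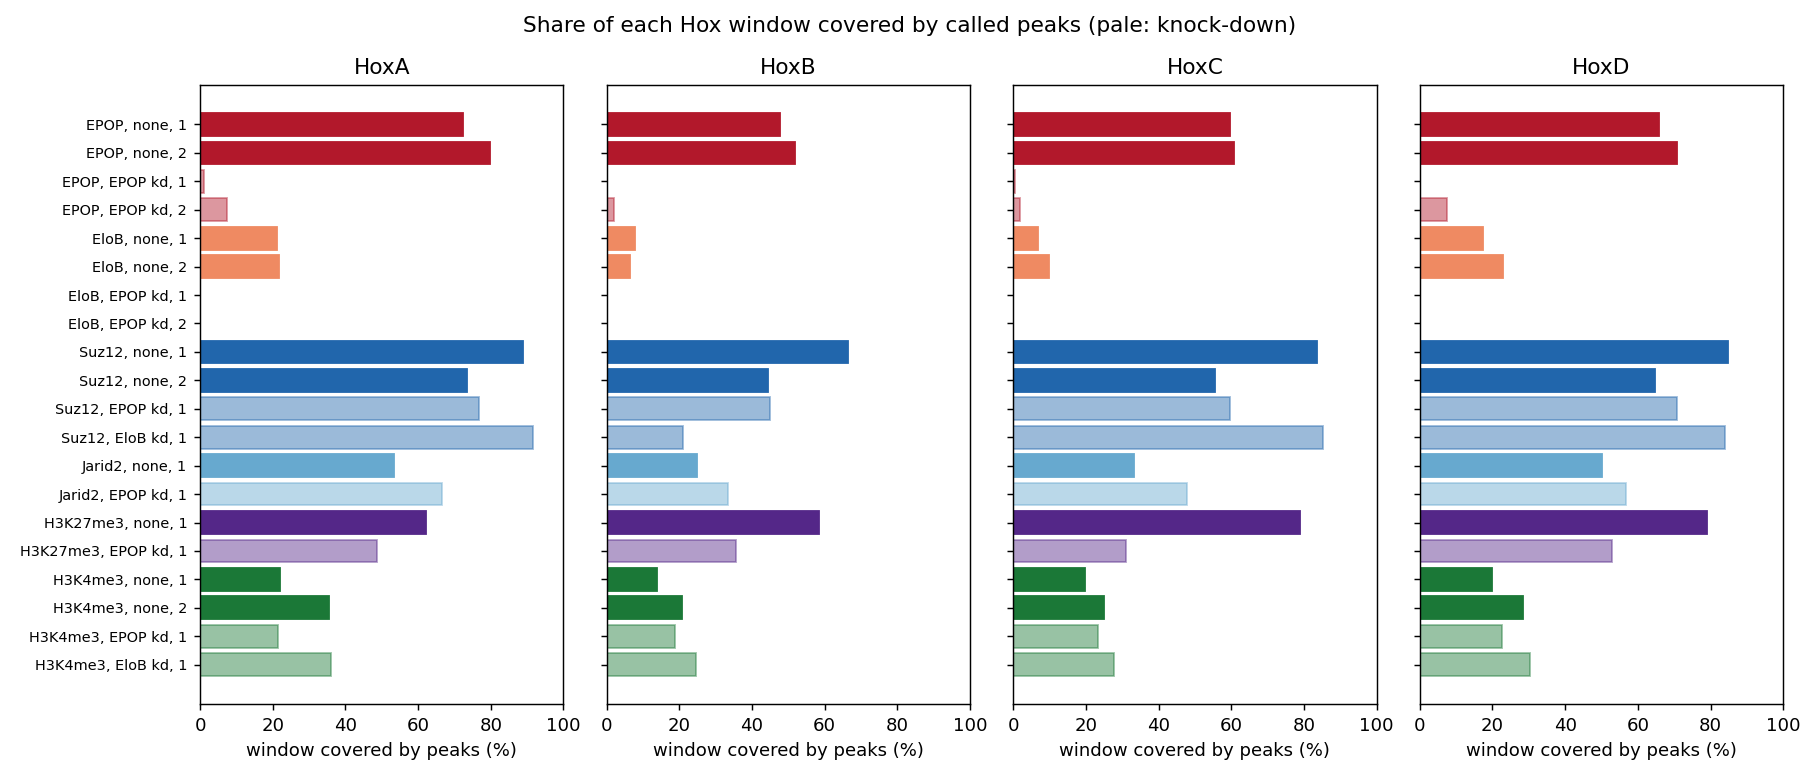
Share of each Hox window covered by called peaks in percent on the x axis, for the 20 lists in rows (full colour: no knock-down, pale: knock-down; each bar is 1 list, so there are no error bars). EPOP and EloB bars lie between 0 and 7.55% upon EPOP knock-down in every cluster, while Suz12 upon EloB knock-down is low in HoxB alone (21.1%, against 84.1% to 91.5% in the other clusters).

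EPOP peaks over the clusters were compared with and without EPOP first, since this checks the antibody and the knock-down. Without knock-down they covered 339.147 and 363.551 kb (351 kb ± 17.3, SD, n = 2) and upon knock-down 2.269 and 24.184 kb (13.2 kb ± 15.5, SD, n = 2). The 2 groups did not overlap, and the mean upon knock-down was 3.76% of that without. A two-sided exact permutation test gave p = 0.333, the smallest value that 2 lists against 2 can reach. Without the library whose labels conflict, the remaining knock-down list covered 0.0688 times the mean length without knock-down. The Hox lengths of the 2 lists without knock-down differed by 1.07 times, although replicate 2 covered only 0.592 times as much of the genome as replicate 1.

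Cluster by cluster, mean EPOP coverage without and upon knock-down was 91.3 and 5.17 kb in HoxA, 97.2 and 2.05 kb in HoxB, 84.4 and 1.67 kb in HoxC, and 78.5 and 4.34 kb in HoxD (2 lists each). Without the library whose labels conflict, the knock-down values were 8.891 kb in HoxA, 4.094 kb in HoxB, 2.522 kb in HoxC and 8.677 kb in HoxD. Of 64 EPOP regions present in both lists without knock-down, 62 had no peak in knock-down replicate 1, where 99.2% of all 5720 EPOP regions had none. In replicate 2, 47 of 64 had none (73.4%, Wilson 95% interval 61.5% to 82.7%, for counting of regions only), where the share over all regions was 91.1%. So 17 of 64 Hox regions kept a peak in replicate 2, a larger share than over the genome, and the difference was not tested. The Hox regions were also wider, with a median of 3826 bp against 2205.5 bp over the genome. An overlap of 1 bp counts as kept, and the part of width in this difference was not tested. None of the 2 and 22 knock-down peaks in the clusters was new, that is, lay at no EPOP peak of either list without knock-down, while 31.5% and 26.5% of all peaks in those lists were. The lists without knock-down already covered 59.5% and 63.8% of the windows, which leaves less length for new peaks. This was not adjusted for.

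The 22 remaining EPOP peaks of replicate 2 were narrow, with a median of 943 bp, and low, with scores of 50.39 to 129.68. The score is the authors' value for each peak, at least 50 in every list, and is compared only within a list. HoxA held 9 of them, HoxD 6, HoxB 4 and HoxC 3. All 22 lay on Suz12 regions and 15 (68.2%) on EloB regions, against 70.8% and 49.6% of all 818 peaks of that list, and these differences were not tested. EPOP regions that held an EloB region kept a peak in 11 of 21 cases and those without one in 6 of 43, against 44.8% and 3.37% over the genome. Regions with EloB were also wider, with a median of 7943 bp against 2771 bp, and the part of width in this difference was not tested.

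No EloB peak was called in the clusters upon EPOP knock-down. The 2 lists without knock-down covered 70.301 and 78.819 kb (74.6 kb ± 6.02, SD, n = 2), most densely in HoxA (25.543 and 26.064 kb) and HoxD (19.911 and 26.242 kb). The 2 knock-down lists held 164 and 127 peaks in the genome and 0 in the 4 windows, which gave the same smallest possible p of 0.333 in the two-sided exact permutation test. All 36 EloB regions shared by the 2 lists without knock-down were missing in both replicates, which allows a kept share of up to 8.33% from counting alone. The background was high: 92.3% and 93.3% of all 930 EloB regions were missing in replicates 1 and 2. Of the knock-down peaks elsewhere, 25.6% and 33.9% were new.

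Suz12 remained over the clusters upon EPOP knock-down. The knock-down list covered 344.887 kb, between the 2 lists without knock-down (326.983 and 450.812 kb), and 1.05 times the hairpin control. Against that control the 4 clusters lay between 1.01 times in HoxB and 1.10 times in HoxD, and the whole list at 1.15 times. Of 29 Suz12 regions shared by both lists without knock-down, 1 had no knock-down peak, against 3.1% of all Suz12 regions. It was a 1110 bp region in HoxA (chr6:52100070-52101179) at the lower window edge. New knock-down peaks numbered 0 of 76, against 13.8% of the list. The lists without knock-down already covered 79.1% and 57.4% of the windows, which leaves less length for new peaks. This was not adjusted for. With the regions of 1 list, 7 of 35 had no knock-down peak without replicate 2 and 1 of 89 without replicate 1. Genome-wide shares were not computed for these single-list regions. The 2 comparisons of Suz12 share their lists without knock-down.

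Upon EloB knock-down, Suz12 coverage was near that of its control in 3 clusters and far below it in HoxB. HoxB was covered over 41.219 kb, against 129.791 kb in the small interfering RNA control and 86.803 kb in the other list. HoxA, HoxC and HoxD were covered over 109.8, 119.163 and 96.695 kb, which is 1.03, 1.02 and 0.992 times that control. Of the 29 regions shared by both lists without knock-down, the only one without a peak was the 87717 bp HoxB region at chr11:96129226-96216942, which holds the widest Suz12 peak of replicate 1, against 2.33% of all Suz12 regions missing. With the regions of 1 list, 14 of 89 were missing without replicate 1 and 2 of 35 without replicate 2, all in HoxB. For those single-list regions the share over the genome was not computed. Around the 87717 bp region, the knock-down list had no peak for 97.821 kb (chr11:96126781-96224601). In the rest of HoxB it covered 41.219 kb, against 41.782 kb in the small interfering RNA control and 19.608 kb in the other list. The lower HoxB coverage thus lay within that 1 stretch. That stretch was bounded by peaks with scores of 1109 and 3100, a value that 1977 of the list's 7168 peaks reach or exceed. The EPOP knock-down list of Suz12 covered 70.0% of the same stretch and H3K27me3 without knock-down 77.3% of it. H3K4me3 upon EloB knock-down had 20 peaks there and covered 31.0%.

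That HoxB stretch was the only one of its kind in the list. Stretches of this kind were not limited to EloB knock-down. Suz12 replicate 2, a control list, had 1 and the EPOP knock-down list of Suz12 had 2, all outside the windows. Suz12 replicate 1 had 0. Of 164 Suz12 peaks of 10 kb or wider in replicate 1, 1 had no peak upon EloB knock-down (0.61%), and it was the HoxB peak; of 30 in replicate 2, 2 had none (6.67%), both in HoxB. The other 10 wide Suz12 peaks of replicate 1 in the windows and all 153 outside were covered for at least 93.0% of their length. In the EloB knock-down list itself the 3 widest peaks of the genome lay in the other clusters: 71445 bp in HoxC, 62462 bp in HoxD and 59257 bp in HoxA. The list has 1 replicate, and no signal track was used, so whether Suz12 signal was absent from the stretch or present without a called peak was not tested. New Suz12 peaks numbered 3 of 37 in the clusters (8.55% over the list), 2 in HoxA and 1 in HoxC, of 705 to 1415 bp.

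**Figure D3:**
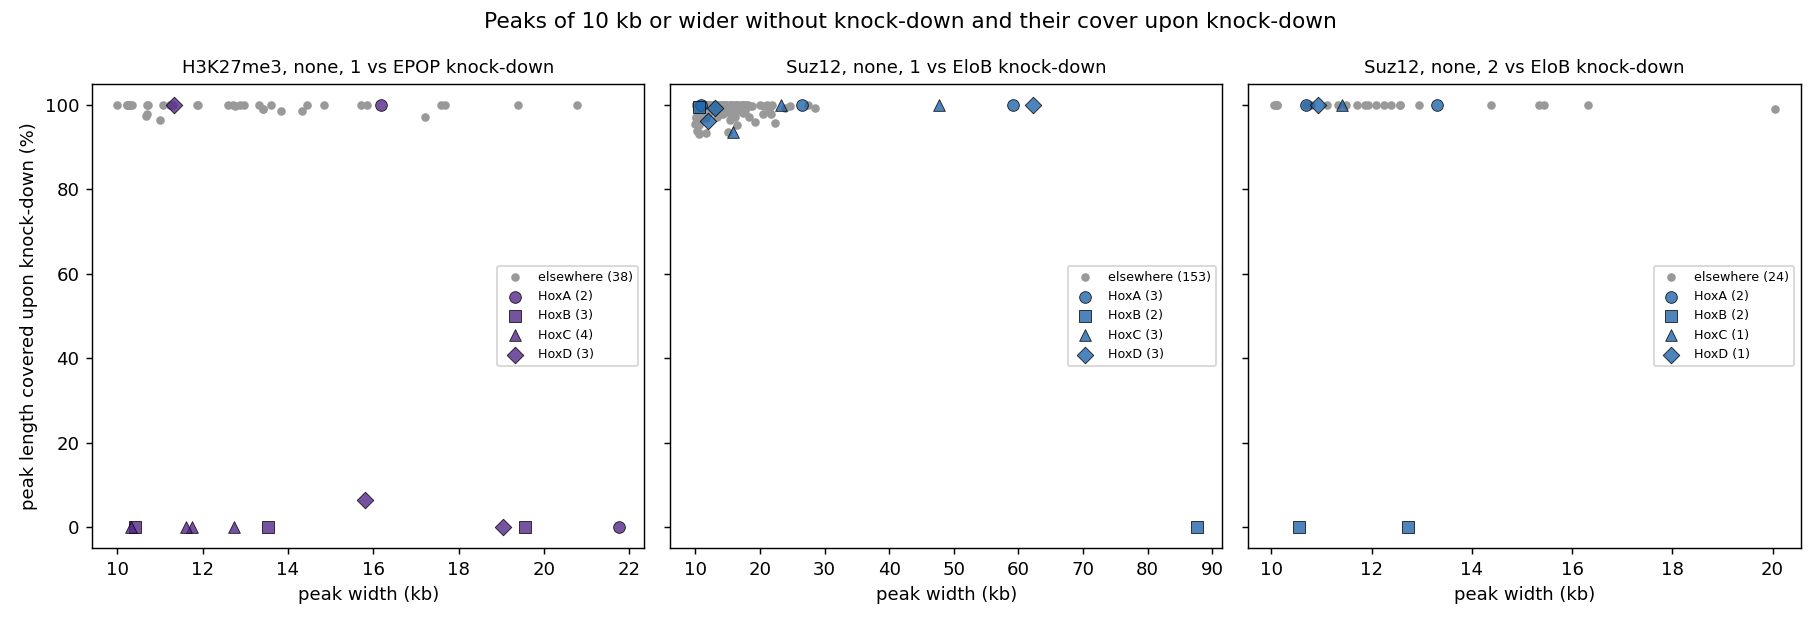
Peaks of 10 kb or wider without knock-down, by width in kb (x axis) and the share of their length covered by peaks of the same target upon knock-down in percent (y axis); grey points lie elsewhere in the genome and coloured symbols in the 4 windows, with counts in brackets. The 38 wide H3K27me3 peaks elsewhere lie between 96.3% and 100% upon EPOP knock-down, while 9 of 12 in the Hox windows are at 0 and 1 is at 6.42%. For Suz12 upon EloB knock-down, the points at 0 are all in HoxB.

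Jarid2 coverage of the clusters was larger upon EPOP knock-down, at 277.651 kb against 216.659 kb (1.28 times, 1 list each), while the number of peaks was 67 against 69. The ratio was 1.25 in HoxA, 1.35 in HoxB, 1.44 in HoxC and 1.13 in HoxD, and 1.53 over the whole list. Of 68 Jarid2 regions that kept a peak, 63 had more peak width upon knock-down, against 89.3% over the genome. The median log2 ratio of these widths was 0.35 in the clusters and 0.31 over the genome. Width upon knock-down was the summed full width of all knock-down peaks touching a region. A peak that joined several regions, such as the 12743 bp HoxA peak (chr6:52173585-52186327), thus counted in full for each. These values therefore include joining of peaks and are not the growth of single peaks. The region without a knock-down peak was a HoxB region of 1524 bp (chr11:96210505-96212028) with a score of 60.97, 1 of 69 against 3.1% of the list. New Jarid2 peaks were 9 of 67, 4 each in HoxB and HoxC and 1 in HoxA, against 33.4% of the list. With 1 list in each condition there is no replicate check, and the clusters' shares were near or below those of the whole list.

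H3K27me3 showed a different pattern from PRC2 itself upon EPOP knock-down. The covered length of the clusters was 231.986 kb against 390.262 kb without knock-down (0.594 times, 1 list each), while the whole list covered 1.09 times as much. Peaks numbered 42 against 82. The ratio was lowest in HoxC (110.588 kb without and 43.298 kb upon knock-down, 0.392 times), followed by HoxB (114.215 and 69.378 kb, 0.607 times), HoxD (90.777 and 60.986 kb, 0.672 times) and HoxA (74.682 and 58.324 kb, 0.781 times). There is no replicate of either list, so no test was possible.

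Each cluster held 1 long uninterrupted stretch without a knock-down peak. Upon EPOP knock-down no H3K27me3 peak was called over 57.114 kb of HoxA (chr6:52148695-52205808), 70.305 kb of HoxB (chr11:96127558-96197862), 72.414 kb of HoxC (chr15:102777068-102849481) and 37.525 kb of HoxD (chr2:74506113-74543637). These 4 were the only stretches in the genome of 10 kb or more without a knock-down peak that held at least 10 kb of a wide H3K27me3 peak. Inside them the list without knock-down covered 192.232 kb, and the knock-down list 0, which follows from how the stretches were defined. Outside them covered length was larger upon knock-down, at 231.986 kb against 198.03 kb without, so the smaller total lay within the stretches. By cluster the outside lengths without and upon knock-down were 45.377 and 58.324 kb in HoxA and 58.741 and 69.378 kb in HoxB. In HoxC they were 39.899 and 43.298 kb and in HoxD 54.013 and 60.986 kb. These differences were not tested. In HoxA the list without knock-down covered 51.3% of the stretch, since it too had no peak for 29.714 kb (chr6:52178073-52207786), where Suz12 replicates 1 and 2 covered 92.3% and 83.1%.

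The H3K27me3 peaks missing in the stretches ranged widely in width and included the widest of the list. Of 50 peaks of 10 kb or wider, 9 had no knock-down peak (18%), and all 9 lay in the Hox windows: 4 in HoxC, 3 in HoxB and 1 each in HoxA and HoxD. They included the widest H3K27me3 peak of the genome, the 21763 bp HoxA peak at chr6:52149327-52171089, and HoxB and HoxD peaks of 19568 and 19053 bp. Of the other 3 wide Hox peaks, 1 in HoxA and 1 in HoxD were covered in full and 1 in HoxD over 6.42% of its length. All 38 wide peaks outside the windows were covered, for 96.3% to 100% of their length. By number of regions the clusters did not stand out: 19 of 82 were missing (23.2%), against 23% over the genome. The Wilson 95% interval of 15.4% to 33.4% is for counting of regions only. It treats neighbouring regions as independent, although 17 of the 19 lay in the 4 stretches. The 17 missing regions inside the stretches had a median width of 10326 bp (2458 to 21763 bp) and a median score of 507.38 (155.97 to 1387.1). For the 2009 missing regions outside the windows these were 900 bp and 66.43. A stretch was kept only if it held at least 10 kb of a wide peak. The width of the 17 regions thus follows in part from that rule, and the difference was not tested. The 10 highest-scoring missing H3K27me3 regions of the genome all lay in the windows, led by a HoxC region of 12733 bp (chr15:102819537-102832269) with a score of 1387.1. New H3K27me3 peaks were 5 of 42, of 608 to 1553 bp, against 26.7% of the list.

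By definition the stretches ended at called peaks, whose width and score varied. The left flank of the HoxD stretch was a knock-down peak of 15878 bp with a score of 1887.62, at the 98.7th percentile of its list, and the right flank of the HoxB stretch a peak of 20775 bp with a score of 845.26. The lowest flank was the right one of HoxA, of 608 bp with a score of 63.56. Next came the right one of HoxC (1226 bp, 136.53) and the left one of HoxA (1964 bp, 269.99). PRC2 subunits had peaks throughout the stretches in the same condition: Suz12 upon EPOP knock-down covered 96.4% of the HoxA stretch, 77.6% in HoxB, 82.4% in HoxC and 95.4% in HoxD. Jarid2 upon EPOP knock-down covered 86.4%, 62.9%, 67.3% and 82.8%, each above its value without knock-down (71.2%, 46.5%, 47.5% and 75.3%). H3K4me3 upon EPOP knock-down covered 24.9%, 21.8%, 19.3% and 29.4%. Whether H3K27me3 signal was absent from these stretches or present without a called peak was not tested, since no signal track was used.

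**Figure D4:**
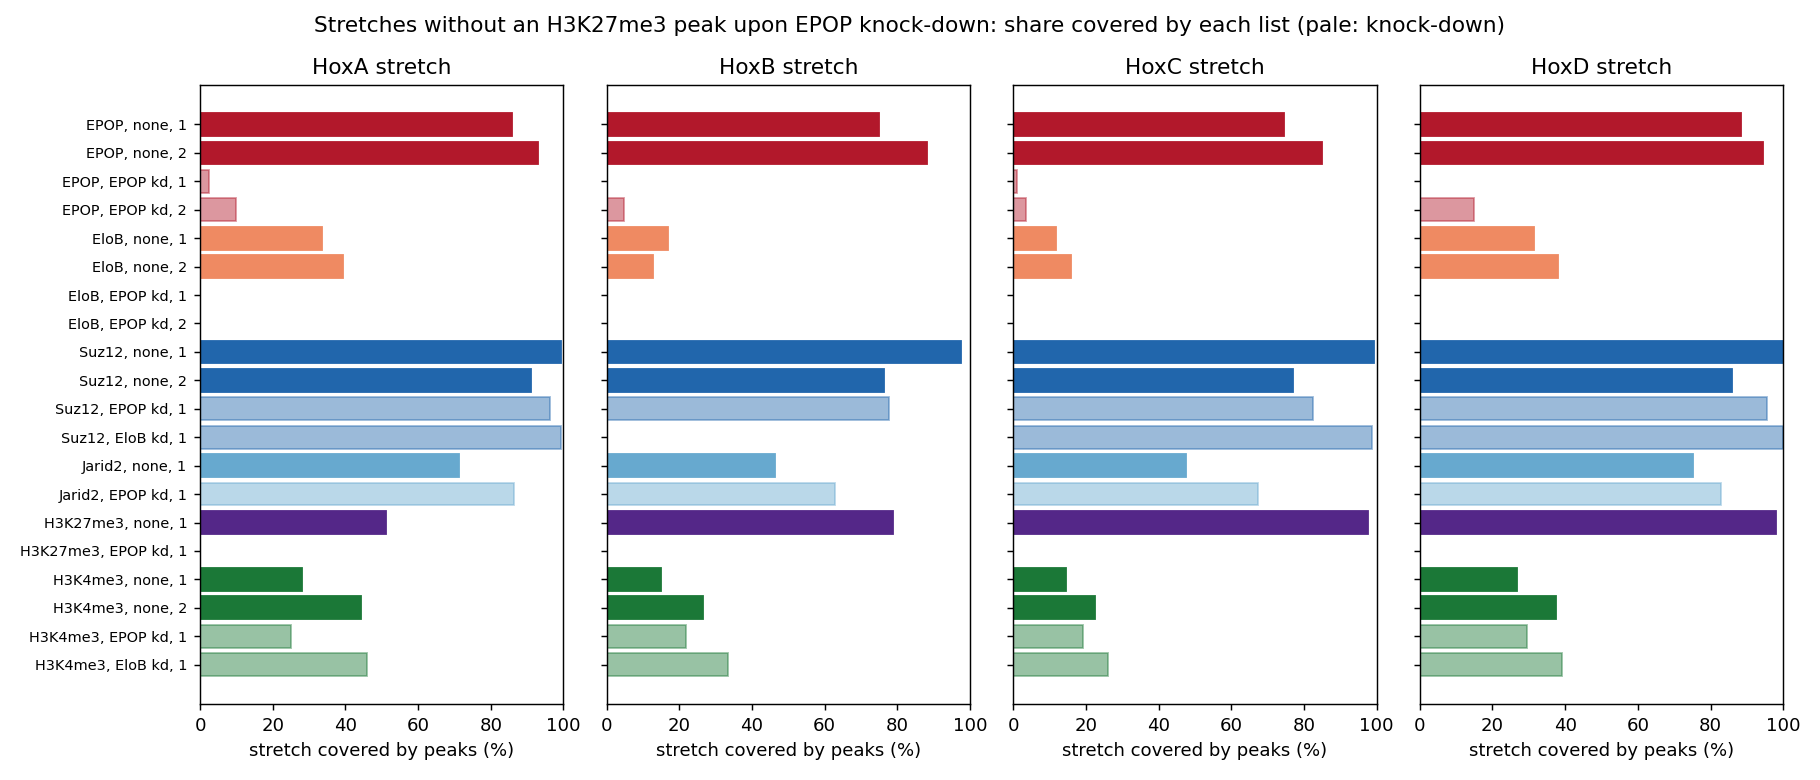
Share of the 4 stretches without an H3K27me3 peak upon EPOP knock-down that each of the 20 lists covers, in percent on the x axis (full colour: no knock-down, pale: knock-down; each bar is 1 list). H3K27me3 upon EPOP knock-down is at 0 by construction. Suz12 and Jarid2 upon EPOP knock-down cover 62.9% to 96.4%, and Suz12 upon EloB knock-down is at 0 in HoxB and between 98.6% and 100% in the other clusters.

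H3K4me3 coverage of the clusters together was slightly larger than in the matching control upon either knock-down, with 1 cluster below its control. Upon EPOP knock-down the peaks covered 121.199 kb, between the lists without knock-down (104.057 and 151.024 kb), and 1.16 times the hairpin control, where the whole list stood at 1.18 times. By cluster the ratio to that control was 0.974 in HoxA, 1.36 in HoxB, 1.18 in HoxC and 1.14 in HoxD. Upon EloB knock-down they covered 164.357 kb, above both lists without knock-down and 1.09 times the small interfering RNA control, where the whole list stood at 1.11 times. The ratio to that control was 1.02 in HoxA, 1.17 in HoxB, 1.10 in HoxC and 1.06 in HoxD. Among regions shared by both lists without knock-down, those without a peak upon EPOP knock-down were 2 of 71 (3.86% over the genome). Both lay in HoxA (chr6:52149845-52151080 and chr6:52179513-52181125), inside the stretch that lacked H3K27me3 peaks. That stretch held 11 of the 18 HoxA peaks of H3K4me3 replicate 1 and 15 of the 24 of replicate 2. At the second region H3K27me3 had no peak without knock-down either. Upon EloB knock-down 0 of 71 were missing, which allows up to 4.23% from counting alone (1.03% over the genome). With the regions of replicate 2 alone, 18 of 98 were missing upon EPOP knock-down, 9 of them in HoxA, and 2 of 98 upon EloB knock-down. Replicate 2 carries the small interfering RNA control, not the hairpin control, and holds 42857 peaks, against 35027 in replicate 1. The share over the genome was not computed for regions of 1 list. New H3K4me3 peaks were 0 of 81 upon EPOP knock-down, against 6.31% of the list, and 8 of 104 upon EloB knock-down, against 14%. Of these 8, 5 lay in HoxB, 2 in HoxC and 1 in HoxA, and the largest was a HoxB peak of 1379 bp (chr11:96155906-96157284) inside the stretch without Suz12 peaks.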

How the data were processed

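Each of 20 ChIP samples had 1 peak list, with chromosome, start, end, name and score. Per the labels and headers nothing defines the deposited score, which starts at 50 in all lists, and it was compared only within a list. The peak names carry MACS per the file headers. The submitters' processing notes name Bowtie, TopHat, Cufflinks and build mm9 with no role or version. Depth is unknown, so precision rests on the number of lists.

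Covered length is the union of a list's peaks inside a window. Reference regions are merged peaks without knock-down that touch a peak of the other such list (1 bp), or every peak of a target with a single list. A region is missing if no knock-down peak overlaps it by 1 bp, and a knock-down peak is new if it overlaps no peak without knock-down. Shares of new peaks were not adjusted for the length already covered without knock-down. A wide peak has at least 10 kb. EPOP and EloB covered lengths were compared by two-sided exact permutation tests over lists. Regions were named by rule: the widest and highest-scoring peaks of each list and window, missing regions, new peaks and peak-free stretches, of which some are printed; the sequences were chosen afterwards. The members, lists and tests were chosen with earlier results of these data known. The width of kept Jarid2 regions and the place of missing H3K27me3 regions were added after the values were seen. Genes fixed as related to the Hox pathway were not looked at, since no mm9 annotation was used here. Alternatives were a score of 100 or more, wider windows, joined peaks, peak number, lists of equal length, other overlaps and widths, and lists left out. Samples with the same number share an antibody in EPOP and EloB; ratios within numbers were an alternative. The tools were bedtools 2.31.1, Python 3.11.15, SciPy 1.17.1, NumPy 2.4.6 and, for plots, Matplotlib 3.10.9. Overlaps equalled those of bedtools in 400 of 400 pairs of lists and 80 of 80 window lengths. When tested on simulated data, 2202 of 2202 regions removed from the H3K27me3 list were found. This checks the code only, since removed regions could not overlap the remaining ones.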

Additional observations from a re-analysis of the deposited data

How the results depend on the processing

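Of 85 alternative ratios of covered length, 75 kept their direction and, where a spread was available, moved by less than it. For EPOP and EloB no spread was applied, so keeping the direction was enough. For Jarid2 and H3K27me3 the spread was that between the clusters, not between replicates. The count of 75 is thus no uniform measure of robustness. Of 54 alternative counts of missing regions, 38 stayed within 1.5 times. The replicate block, the mean of ratios within replicate numbers, gave 0.0366 for EPOP and 0 for EloB and changed no call; leaving out 1 list gave 0.00646 to 0.0688 for EPOP and 0 to 0 for EloB. By number of peaks the ratio turned to 1.23 for Suz12 upon EPOP knock-down and to 0.971 for Jarid2, and moved to 0.597 for Suz12 upon EloB knock-down, where the peaks of replicate 2 are shorter and more numerous. With 1 list without knock-down left out, the ratio ran from 0.765 to 1.05 for Suz12 upon EPOP knock-down, from 0.814 to 1.12 for Suz12 upon EloB knock-down and from 0.803 to 1.16 for H3K4me3 upon EPOP knock-down, so these 3 have no firm direction; without Suz12 replicate 1 they stood at 1.05 and 1.12, and without H3K4me3 replicate 2 at 1.16. The H3K27me3 ratio lay between 0.512 and 0.632 under its 5 alternatives.

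Missing EloB regions numbered 18 of 18 with scores of 100 or more and 56 of 56 with regions of either list, in both replicates. With regions of either list, missing regions numbered 7 for Suz12 upon EPOP knock-down, 2 for Suz12 upon EloB knock-down, 18 for H3K4me3 upon EPOP knock-down and 2 for H3K4me3 upon EloB knock-down. With scores of 100 or more they numbered 0 for Suz12 upon EPOP knock-down and 0 for Jarid2, which also had 0 within 1000 bp. With regions of 1 list they ran from 1 to 7 for Suz12 upon EPOP knock-down, from 2 to 14 for Suz12 upon EloB knock-down (14 without replicate 1), from 2 to 18 for H3K4me3 upon EPOP knock-down (18 without replicate 1) and from 0 to 2 upon EloB knock-down; these were added after the data were seen. Shares over the genome were not computed for the counts of missing regions under these alternatives. Wide H3K27me3 peaks without a knock-down peak numbered 1 of 1 in the windows at 20 kb or more. At 5 kb or more, 4 of 22 wide Suz12 peaks of replicate 2 had none upon EloB knock-down, against 2 of 6 at 10 kb. Depth was unknown for every list, and the amount of signal left where a peak was missing was not measured. Jarid2, H3K27me3 and every Suz12 and H3K4me3 knock-down had 1 list, so those ratios carry no replicate error.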
